A study of Mus musculus with 2 samples.

Results

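The genes Cd28, Ctla4 and Icos lie side by side on mouse chromosome 1. Their locus was taken as the stretch from 60.78 to 61.09 Mb on mm9, and 67 of the 86805 sites found over the genome with STAT5 or STAT3 reads lay in it. Sites were assigned by position alone: the bounds enclose the 3 genes, and a site belongs to the locus when the centre of its tallest window lies inside. The locus itself was chosen with earlier results of these data known. Chromatin immunoprecipitation sequencing had been done on T helper 17 (Th17) cells, which are CD4 T cells known for making IL-17, from wild-type C57BL/6J mice. The STAT5 library came from cells given IL-2 (200 IU/ml) for 30 minutes and was made with STAT5A and STAT5B antibodies together. The STAT3 library came from cells given IL-6 (40 ng/ml) for 30 minutes and was made with 1 antibody to STAT3. Before that, both had been naive CD4 T cells sorted from spleen and lymph nodes and kept for 3 days on antibodies to CD3 and CD28, with 20 ng/ml of IL-6, 2 ng/ml of TGF-beta and antibodies to IL-4 and, per the labels, IL-2. Antibody and cytokine changed together, so their shares in a difference cannot be told apart. There was 1 library per antibody and no input library was analysed here, so no difference below has a replicate check, and binding cannot be told apart from places that yield more reads with any antibody.

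CD28 is the receptor that gives a T cell its main second signal beside the T cell receptor, after binding CD80 or CD86 on the presenting cell. CTLA-4 binds the same ligands more tightly and restrains the cell, and ICOS, a related receptor for ICOS ligand, appears after activation and supports helper T cells. STAT5 and STAT3 are cytoplasmic factors that cytokine receptors activate by phosphorylation, STAT5 mainly below IL-2 and STAT3 mainly below IL-6, and both then enter the nucleus and bind related DNA motifs. All 3 genes are read in the same direction, toward higher positions, so the lower end of each span is taken as its start. The reads place proteins on DNA and do not measure RNA, so neither the activity of these genes nor the markers of the cell type could be examined.

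The place of Ctla4 within the locus needs a caution. The spans supplied with the locus were 60.803 to 60.83 Mb for Cd28, 60.944 to 60.951 Mb for Ctla4 and 61.035 to 61.057 Mb for Icos. They are approximate and given to 1 kb, so distances below 1 kb from a start are not resolved. The RefSeq gene table used here is on another build, GRCm38, and its coordinates were not converted, but distances within it can be compared. In RefSeq, Cd28 is 27.0 kb long and Icos ends 253.9 kb after the Cd28 start, close to the 27 kb and 254 kb of the supplied spans. RefSeq puts the start of Ctla4 162.6 kb after that of Cd28, whereas the supplied span starts 141 kb after it, a difference of 21.6 kb. The lengths of Ctla4 match, at 6.81 kb in RefSeq and 7 kb as supplied, and its end is displaced likewise, by 21.4 kb. By the RefSeq spacing the supplied span would thus lie before the gene, though no mm9 annotation was used to settle this. Results for Ctla4 are therefore given for both places, called the supplied span and the RefSeq distance. RefSeq also starts Icos 214.4 kb after Cd28, where the supplied start is 232 kb after it, on a record that includes predicted transcripts.

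The locus was crowded with reads of both antibodies. It held 27723 STAT5 and 21802 STAT3 reads, which is 4.98 STAT5 and 3.38 STAT3 reads per 1000000 nuclear reads (RPM) per kb, against a genome mean of 0.424 in either library. The adjoining 310 kb before it had 0.728 STAT5 and 0.666 STAT3 RPM per kb, and the adjoining 310 kb after it 1.49 and 0.833. The dense stretch ran past the upper bound, with 15.6 STAT5 and 6.26 STAT3 RPM per kb from 61100001 to 61110000, and fell to 0.301 and 0.443 from 61130001 to 61140000. Windows of 310 kb were then moved by 10 kb over the genome, as a description of where the locus ranks; its bounds were drawn around these genes with earlier results known. Of the 263484 windows that did not touch it, none reached its STAT5 density (highest 4.83 RPM per kb), and none had as many sites (highest 60, median 5). The STAT3 density was exceeded at 1 other place, with 3.46 RPM per kb.

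**Figure D1:**
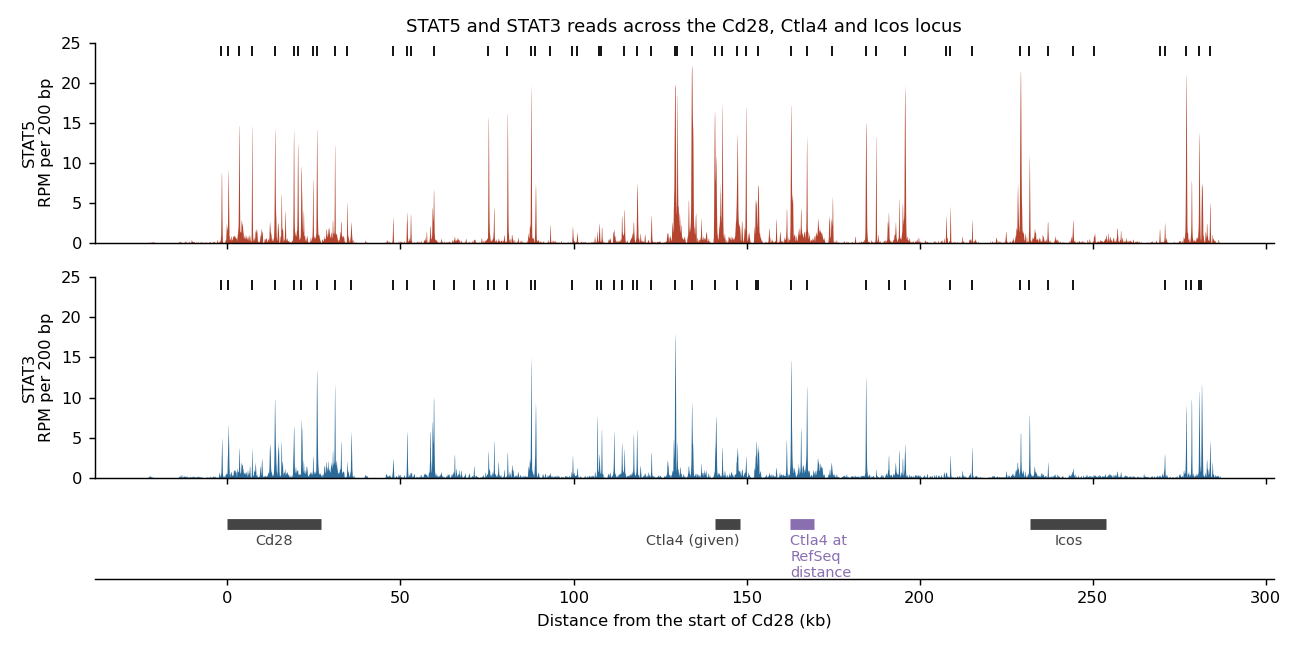
RPM in windows of 200 bp (y axis) against distance from the start of Cd28 in kb (x axis), with STAT5 above STAT3 and a tick for each site that was a region in that library. Reads rise at Cd28 in both libraries, and the tallest STAT5 window, at 22.2 RPM, lies 134.2 kb from the Cd28 start.

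The rise began at Cd28. In steps of 10 kb, the first 20 kb of the locus, up to 60800000, had 0.134 and 0.412 STAT5 RPM per kb and 0.188 and 0.447 STAT3 RPM per kb, below or near the genome mean. The next step, from 60800001 to 60810000, had 8.32 STAT5 and 4.80 STAT3 RPM per kb. Reads were uneven further on: the step from 60840001 to 60850000 held no site and fell back to 0.212 STAT5 and 0.332 STAT3 RPM per kb, and the step from 60930001 to 60940000 was the densest, at 19.0 STAT5 and 8.08 STAT3 RPM per kb. The stretches between sites were also above the genome. Outside the regions of the same library the locus had 9.63 STAT5 and 8.50 STAT3 reads per 200 bp, against 0.983 and 1.40 outside regions over the genome. These stretches include the flanks of sites and windows that missed the threshold.

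**Figure D2:**
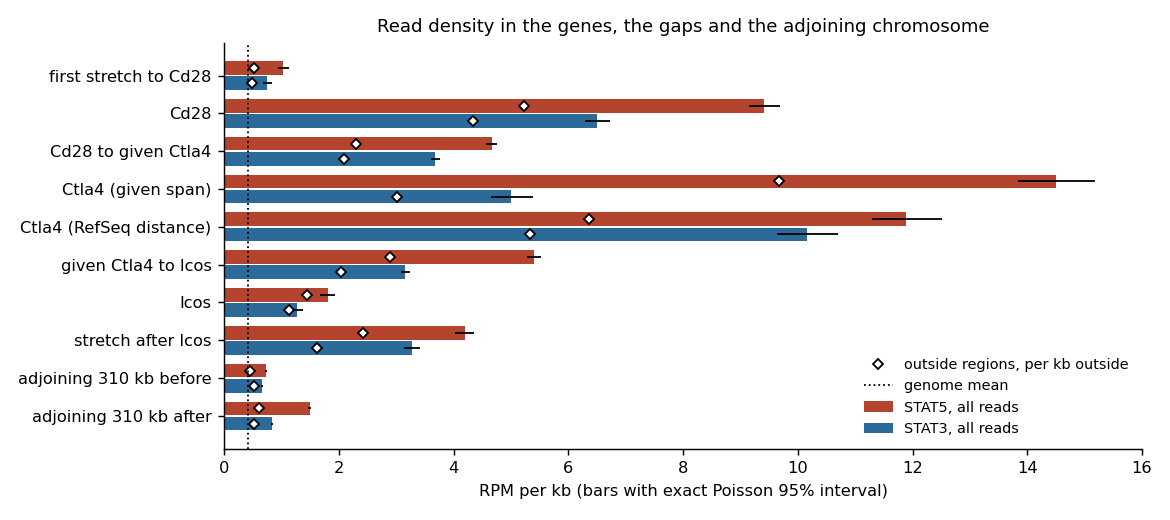
RPM per kb (x axis) of STAT5 and STAT3 in the genes, the gaps between them and the adjoining chromosome, as bars with exact Poisson 95% intervals; diamonds give reads outside regions per kb outside regions, and the dotted line the genome mean of 0.424. By the supplied spans Icos has the lowest STAT5 and STAT3 density of the 3 genes, and STAT5 is highest in the supplied Ctla4 span, at 14.5 RPM per kb.

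Regions were called in windows of 200 bp where reads were 4-fold or more above whichever mean was highest (genome-wide, 5 kb or 10 kb around), with a Poisson p adjusted over the genome (Benjamini-Hochberg) of 1e-05 or below. The locus held 54 STAT5 and 49 STAT3 regions, with a median width of 400 bp for STAT5 and 350 bp for STAT3. Of the windows with a read, 4.66% of STAT5 and 3.87% of STAT3 windows in the locus lay in a region, against 1.53% and 0.878% over the genome. The regions merged into 67 sites, spaced by a median of 3.7 kb. Both antibodies gave a region at 36 sites (53.7%, exact 95% interval 41.1 to 66.0%), against 47.5% over the genome. STAT5 alone did so at 18 sites (26.9%, 16.8 to 39.1%), against 34.1%, and STAT3 alone at 13 (19.4%, 10.8 to 30.9%), against 18.3%. For all 3 classes the share over the genome lay inside the interval of the locus. The intervals treat neighbouring sites of 1 locus as independent draws, so this is a description and not a test. The same limit holds for the shares of called sites below.

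A site without a region still held reads of that library. The 13 sites with a STAT3 region only had 7 to 160 STAT5 reads (median 61), and 11 of them had over 2 times the between-site STAT5 level of 9.63 reads. The 18 sites with a STAT5 region only had 4 to 97 STAT3 reads (median 34), and 12 had over 2 times the STAT3 level of 8.50. These levels are means over the locus and hide wide local differences. By the supplied spans they ran from 1.90 STAT5 and 2.04 STAT3 reads before Cd28 to 34.7 STAT5 in Ctla4 and 18.0 STAT3 in Cd28. The site from 60823151 to 60823400 in Cd28, among the 12, had 18 STAT3 reads, about the level there. The regions are judged against means that include neighbouring sites, which are high in so dense a stretch. Against the genome-wide mean alone the locus held 127 STAT5 and 116 STAT3 regions, and with a minimum of 8-fold only 16 and 10.

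Sites in the locus were tall. The median site had 130 STAT5 and 80 STAT3 reads in its 200 bp window, or 7.24 STAT5 and 3.85 STAT3 RPM, whereas the median over all sites of the genome was 31 STAT5 and 26 STAT3 reads. With at most 1 read per position and strand, such a window can hold 400 reads. At 25 of the 67 sites (37.3%) at least 200 of these were taken by STAT5, and at 12 (17.9%) by STAT3, against 6.65% and 2.07% of sites over the genome. This ceiling limits how large a ratio the tallest sites can show. With counts corrected for the positions already taken, the ratio was over 1.5 times larger at 8 of the 20 sites called for STAT5 below, where it came to 8.14 to 14.5. That correction assumes reads spread evenly over the window. Its intervals treat corrected counts as if they had been read, so they are too narrow at tall sites, and calls from them are loose.

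The libraries were compared at each site by the ratio of STAT5 RPM to STAT3 RPM, with an exact 95% interval that covers counting error only, and a site was called when the interval lay wholly beyond 2-fold. STAT5 was higher at 20 sites (29.9%, exact 95% interval 19.3 to 42.3%), against 27.6% of all sites of the genome. STAT3 was higher at 3 (4.48%, 0.933 to 12.5%), against 3.18% of all sites, and 44 were not called. Both shares lay near those of the genome. A call depends on the number of reads, though, and the sites of the locus had more (median 130 STAT5 and 80 STAT3, against 31 and 26). The shares therefore come from sites with unlike chances of being called. The ratio ran from 0.194 to 14.3 with a median of 1.39, against a median of 1.31 over all sites of the genome with a STAT3 read. It was above 1 at 49 sites and below 1 at 18, with the interval wholly above 1 at 37 and wholly below 1 at 12. These counts depend on the scaling by RPM.

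**Figure D3:**
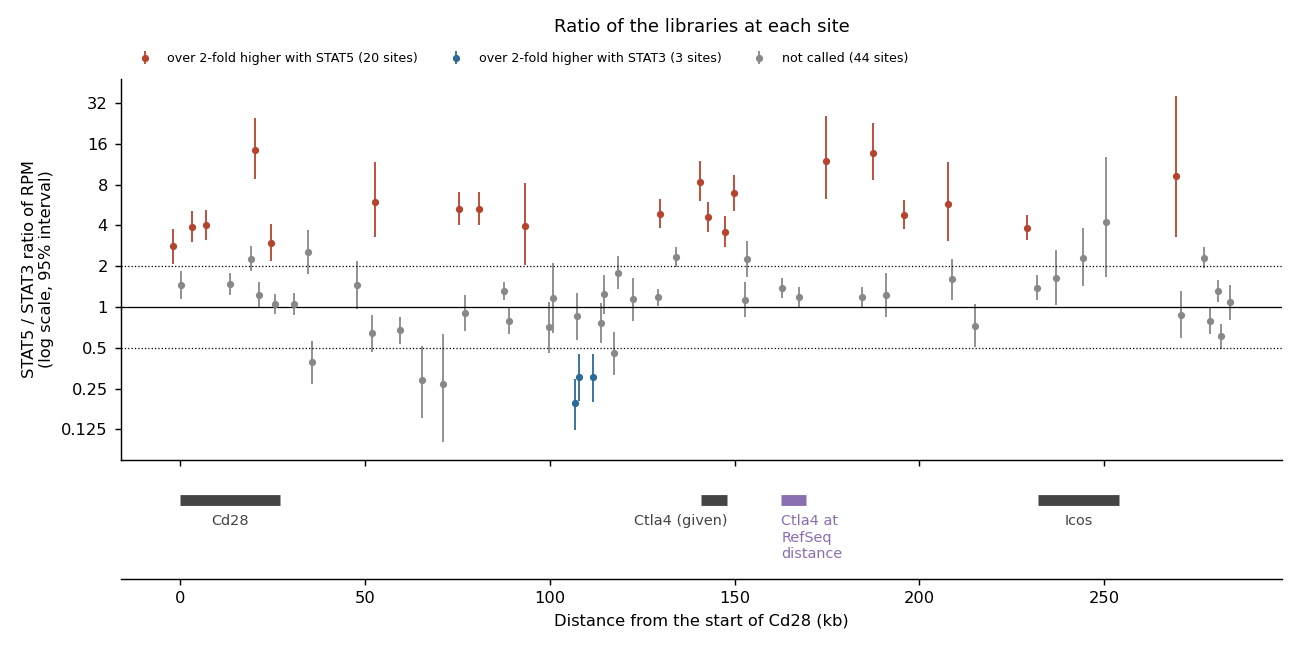
STAT5 over STAT3 ratio of RPM (y axis, log scale, with exact 95% intervals) at each of the 67 sites against distance from the start of Cd28 in kb (x axis); dotted lines mark 2-fold in either direction. The 3 sites higher with STAT3 lie close together between Cd28 and Ctla4, at 106.8 to 111.7 kb and with 1 site that was not called among them, and the 20 higher with STAT5 are spread from 1.75 kb before Cd28 to 269.4 kb after its start.

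Cd28 held sites of both antibodies along its length. Its 27 kb held 9 sites, with 8 STAT5 and 6 STAT3 regions, and 9.42 STAT5 and 6.51 STAT3 RPM per kb. The site at the start, from 60803001 to 60803400 and centred 0.2 kb after it, had 166 STAT5 and 133 STAT3 reads (9.24 and 6.40 RPM). Its ratio of 1.44 (95% interval 1.14 to 1.83) was not called. A second site from 60801051 to 60801500, 1.75 kb before the start, had 160 STAT5 and 66 STAT3 reads in the STAT5 window and a ratio of 2.80 (2.09 to 3.80). There the STAT3 reads peaked elsewhere in the site: with each library at its own tallest window there were 160 STAT5 and 103 STAT3 reads, and the call was lost, at 1.80 (1.39 to 2.33).

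Inside Cd28, 4 sites were higher with STAT5. The site from 60806151 to 60806550 had 264 STAT5 and 78 STAT3 reads (3.92, 3.03 to 5.11), and its neighbour from 60809851 to 60810250 had 267 and 77 (4.01, 3.1 to 5.24). The site from 60823151 to 60823400 had 223 STAT5 and 18 STAT3 reads, and its ratio of 14.3 (8.86 to 24.6) was the highest of the locus in these windows, though not in 400 bp or at own windows, where the site from 60990151 to 60990600 was above it (13.7 against 12.4, and 12.5 against 12.3). A smaller one from 60827551 to 60827750 had 144 STAT5 and 56 STAT3 reads (2.98, 2.17 to 4.13). The gene also held tall sites with both antibodies close by. From 60828551 to 60829050, near its end, there were 255 STAT5 and 280 STAT3 reads (1.05, 0.89 to 1.25), and 5.15 kb further on, past the gene, the site from 60833801 to 60834150 had 220 and 243 (1.05, 0.87 to 1.26). The 3 sites of Cd28 not yet given had 160 to 260 STAT5 and 131 to 205 STAT3 reads and were not called.

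The long gap from Cd28 to the supplied Ctla4 span held 30 sites over 114 kb, of which 6 were higher with STAT5 and 3 with STAT3. From 60837401 to 60874300, 8 sites had 7 to 122 STAT5 and 13 to 210 STAT3 reads, and at 5 of them the ratio was below 1. The exception called for STAT5 lay from 60855701 to 60856100, with 67 STAT5 and 13 STAT3 reads (5.96, 3.26 to 11.8, and 3.81 in 400 bp). Further along, a pair of sites was alike in height. The one from 60878151 to 60878600 had 283 STAT5 and 62 STAT3 reads (5.28, 4.0 to 7.07), and the one from 60883651 to 60884100 had 291 and 64 (5.26, 4.0 to 7.01). The site from 60890451 to 60890900 was tall in both libraries, with 355 STAT5 and 315 STAT3 reads (1.30, 1.12 to 1.52). A weak one from 60896051 to 60896400 had 41 STAT5 and 12 STAT3 reads (3.95, 2.04 to 8.26), and was not called in 400 bp or at own windows.

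The sites higher with STAT3 formed 1 run in this gap. From 60909651 to 60920450, a stretch of 10.8 kb, 7 sites followed each other with 27 to 76 STAT5 and 62 to 161 STAT3 reads, and at 6 of them the ratio was below 1. The site from 60909651 to 60910000 had 27 STAT5 and 161 STAT3 reads, which is 1.5 STAT5 and 7.75 STAT3 RPM, and its ratio of 0.194 (0.124 to 0.293) was the lowest of the locus. The site from 60910901 to 60911250 had 33 STAT5 and 125 STAT3 reads (0.305, 0.201 to 0.452), and that from 60914501 to 60914800 had 32 and 122 (0.303, 0.199 to 0.451). When depth was taken from the 10 kb bins that hold no region, STAT3 came to 0.722 of its RPM level, and only the first of the 3 remained called. The others had ratios of 0.423 and 0.420. The uncalled ratios of 0.858 and 0.767 in this run exceed 0.722, so they would pass 1 with that scaling.

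STAT5 reads were densest just after this run. From 60932101 to 60952950, a stretch of 20.9 kb that includes the supplied Ctla4 span, 7 sites had 246 to 398 STAT5 and 41 to 351 STAT3 reads, and 5 were higher with STAT5. The site from 60932101 to 60932600 was the tallest STAT3 site of the locus by these windows and tall with STAT5 too, with 357 STAT5 and 351 STAT3 reads (1.18, 1.01 to 1.37). Only 0.65 kb further on, the site from 60932801 to 60933050 had 336 STAT5 and 80 STAT3 reads (4.86, 3.80 to 6.28). So within 1 kb a site with like reads of both antibodies stood beside one that STAT5 reads dominated.

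The tallest STAT5 site of the locus lay from 60936901 to 60937500. It had 398 STAT5 and 198 STAT3 reads (22.2 and 9.53 RPM), and more STAT5 reads than 99.9% of all sites of the genome. With 398 of 400 possible reads its ratio of 2.33 (1.96 to 2.77) is held down by the ceiling and was not called. In 400 bp around the same centre there were 730 STAT5 and 277 STAT3 reads, and the ratio of 3.05 (2.65 to 3.51) was called.

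The supplied Ctla4 span had 14.5 STAT5 and 5.00 STAT3 RPM per kb, a ratio of 2.90 (2.66 to 3.16). It held 2 sites, both higher with STAT5: from 60945801 to 60946050 with 315 STAT5 and 79 STAT3 reads (4.61, 3.59 to 5.98), and from 60950101 to 60950450 with 246 and 79 (3.60, 2.79 to 4.70). A wide site from 60943601 to 60944350 reached across the supplied start. In its tallest STAT5 window it had 297 STAT5 and 41 STAT3 reads (8.38, 6.03 to 11.9). Its STAT3 reads peaked in another window, with 158 reads, and with each library at its own window the ratio was 2.17 (1.79 to 2.65) and no longer called. A further STAT5-higher site from 60952601 to 60952950 had 304 STAT5 and 51 STAT3 reads (6.90, 5.11 to 9.47).

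At the RefSeq distance the picture for Ctla4 was another one. The span 162.6 to 169.4 kb after the Cd28 start had 11.9 STAT5 and 10.2 STAT3 RPM per kb, a ratio of 1.17 (1.09 to 1.26), and its 2 sites were tall in both libraries. The site from 60965551 to 60966050 was centred 162.8 kb after the Cd28 start. That is 0.11 kb beyond the RefSeq distance of the Ctla4 start, less than the 1 kb to which starts are known. The site had 308 STAT5 and 260 STAT3 reads (17.1 and 12.5 RPM, ratio 1.37, 1.16 to 1.62). With each library at its own tallest window it had 308 STAT5 and 305 STAT3 reads (1.17, 0.99 to 1.37). The site from 60970201 to 60970550 had 241 and 237 (1.18, 0.98 to 1.41). A STAT3 window from 60968551 to 60968750, with 131 reads, was the tallest STAT3 window of the locus outside the sites. By the RefSeq spacing, which matches the Cd28 length and the Icos end, neither site of the gene was called and the supplied span would lie before it. The STAT5-higher sites of the supplied span belong to Ctla4 only if that span is right on mm9. No mm9 annotation was used here to settle it.

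The sequence just before Ctla4 is shown because a tall shared site lies at its RefSeq distance. The RefSeq promoter table, on GRCm38, matched 1 of the 3 genes. The 250 bases before the Ctla4 start are chr1:60908775-60909024 on the plus strand, with every TTCC or GGAA in capitals, the 4 letters that often open or close a STAT motif. The match to the site is by distance from Cd28 and not by position. By that distance the start falls at 60965637, before the 200 bp window of the site, which begins at 60965651. The bases shown would therefore lie outside that window.
Ctla4: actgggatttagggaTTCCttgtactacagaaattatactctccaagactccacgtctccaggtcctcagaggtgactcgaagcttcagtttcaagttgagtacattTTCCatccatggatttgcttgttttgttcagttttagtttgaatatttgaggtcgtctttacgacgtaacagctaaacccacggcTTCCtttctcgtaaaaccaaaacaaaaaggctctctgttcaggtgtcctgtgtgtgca
The capitals stand 235, 143 and 58 bases before the start, and 93.4% of the 32851 promoters in the table hold such letters in their 250 bases, with a median of 3. The motif TTCNNNGAA and its longer form with 4 bases between TTC and GAA, which read the same on both strands, were searched from 250 bases before to 50 after the start. Neither was found at Ctla4. Of all promoters in the table, 8.30% hold TTCNNNGAA and 6.95% the longer form. This says only that these letters are not in the stretch searched, which would take in only the first part of the site's window.

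**Figure D4:**
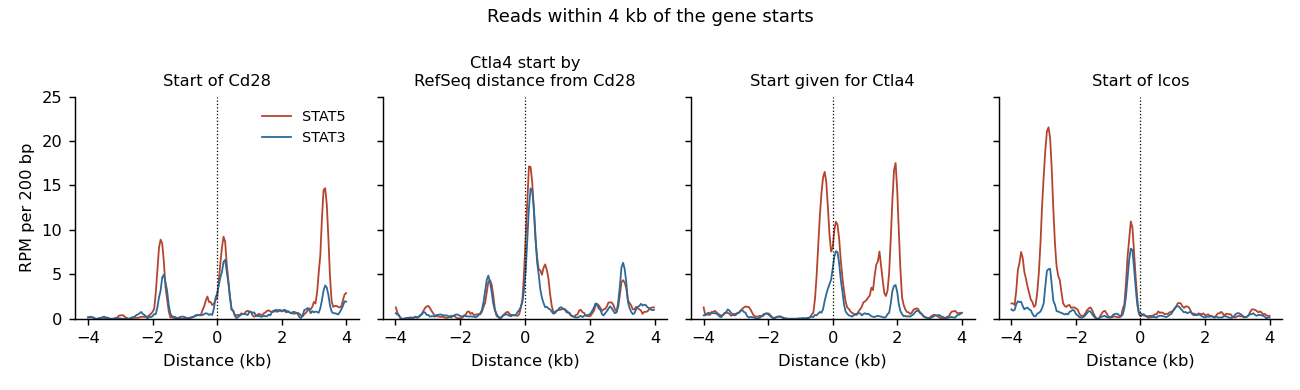
RPM in windows of 200 bp (y axis) of STAT5 and STAT3 within 4 kb (x axis, distance in kb) of the Cd28 start, the RefSeq distance of the Ctla4 start, the supplied Ctla4 start and the supplied Icos start. The starts are known only to 1 kb. Both antibodies have a peak within 0.4 kb of the Cd28 and Icos starts and of the RefSeq distance, though taller STAT5 peaks stand 3.35 kb after the Cd28 start and 2.85 kb before the Icos start, while at the supplied Ctla4 start the tallest STAT5 and STAT3 windows of the site stand apart.

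Between the supplied Ctla4 span and Icos, 15 sites lay in 84 kb, of which 6 were higher with STAT5 and none with STAT3. Beside the one already given, these had 60 to 387 STAT5 and 10 to 116 STAT3 reads. The site from 60977601 to 60978000 had 104 STAT5 and 10 STAT3 reads (12.0, 6.29 to 25.8), but its ratio was 5.29 in 400 bp and 6.68 at own windows. The site from 60990151 to 60990600 had 238 and 20 (13.8, 8.72 to 23.0). It stood only 2.9 kb from a shared one, from 60987201 to 60987750, with 269 STAT5 and 263 STAT3 reads (1.18, 0.99 to 1.41). The site from 60998451 to 60999000 had 356 STAT5 and 86 STAT3 reads (4.79, 3.77 to 6.13), and that from 61010451 to 61010850 had 60 and 12 (5.79, 3.08 to 11.8, and 3.21 in 400 bp). Of the 15 sites, 3 lay between the RefSeq distance of the Icos start and the supplied start.

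By the supplied span, the tall sites of Icos stood at its start and before it, and those inside the gene were low. From the RefSeq distance of its start, both tall sites would lie inside the gene. The site from 61034501 to 61034950, centred 0.3 kb before the supplied start, had 197 STAT5 and 164 STAT3 reads (11.0 and 7.89 RPM), and its ratio of 1.39 (1.12 to 1.72) was not called. The site from 61031851 to 61032350, 2.85 kb before the start, was the second tallest STAT5 site of the locus, with 387 STAT5 and 116 STAT3 reads (21.5 and 5.58 RPM, ratio 3.86, 3.13 to 4.79). Corrected for positions taken, that ratio was 11.6 (9.71 to 13.9, an interval too narrow so near the ceiling). The 22 kb of the gene held 3 sites, with 22 to 52 STAT5 and 6 to 34 STAT3 reads, none of them called. Its density of 1.80 STAT5 and 1.27 STAT3 RPM per kb was the lowest of the 3 genes, though above the genome mean.

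Past Icos, after the widest gap between sites (18.9 kb), tall sites came back. In the 33 kb to the end of the locus there were 7 sites. The first, from 61072201 to 61072500, was low but higher with STAT5, with 32 STAT5 and only 4 STAT3 reads (9.26, 3.28 to 36.0, and 4.63 in 400 bp). From 61079751 to 61087000, 5 sites stood within 7.25 kb, with 91 to 380 STAT5 and 97 to 244 STAT3 reads. The site from 61079751 to 61080250 had 380 STAT5 and 190 STAT3 reads (2.31, 1.94 to 2.77) and was not called, though it was in 400 bp (2.71, 2.33 to 3.16), with counts corrected for positions taken and with scaling by bins without a region. The site from 61084301 to 61084700 had 128 STAT5 and 244 STAT3 reads (0.607, 0.486 to 0.755) and was not called.

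The site heights at the gene starts can be set side by side. The STAT5 windows had 9.24 RPM at Cd28, 17.1 at the RefSeq distance of Ctla4 and 11.0 at the supplied Icos start, and the STAT3 counts in the same windows were 6.40, 12.5 and 7.89 RPM. The ratios at these 3 places were 1.44, 1.37 and 1.39, and none was called. The site at the supplied Ctla4 start differed, with 16.5 STAT5 and 1.97 STAT3 RPM and a ratio of 8.38, or 2.17 and not called at own windows. Nearest to the RefSeq distance of the Icos start stood a lower site, from 61017901 to 61018300. It had 2.84 STAT5 and 3.90 STAT3 RPM and a ratio of 0.728 (0.503 to 1.05), which was not called. At the RefSeq distance of Ctla4 the interval included 1 when each library was read at its own tallest window. Other recounts went the other way. Corrected for positions taken, the ratio there was 1.62, and with scaling by 10 kb bins without a region that at the Cd28 start was 2.00. By the supplied spans, 4 of the 20 sites called for STAT5 lay inside Cd28, 2 inside Ctla4 and none inside Icos. By the RefSeq distances, 4 lay inside Cd28, 0 inside Ctla4 and 1 inside Icos. Exon positions on mm9 were not used here. At the 36 sites with a region of both antibodies, the median fragment position in 400 bp differed by a median of 14.3 bp between STAT5 and STAT3, and by 25 bp or less at 24 of them. The largest such offset was 94.5 bp, at the site from 60921101 to 60921600.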

How the data were processed

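Each deposited file is a list of 25 nt reads aligned to mm9, per the submitters' processing notes. For the aligner and filters, nothing was found in the labels. The deposited score is 0 in every line and was not used. No position and strand on chromosome 1 held more than 1 read, so 200 bp can hold at most 400. There were 17963766 STAT5 and 20784388 STAT3 nuclear reads. The labels count the IL-2 antibody in IU (100 per ml), as one would IL-2, so its role is unclear.

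Read 5′ ends were moved 50 bp in the 3′ direction and counted in windows of 200 bp, step 50, in Python 3.11.15 (scipy 1.17.1, numpy 2.4.6 and pandas 2.3.3). Windows with at least 5 reads that passed the thresholds were joined within 100 bp, and regions with over 80% of summit reads on 1 strand were left out (186 STAT5 and 106 STAT3 over the genome). Regions sharing 1 bp became a site, counted in the 200 bp window of its higher summit; this favours the library that set the window. No p-value was computed between libraries. The caller and interval were tested on simulated reads without the limit of 1 read per position and strand, so sites near that ceiling were not covered. Given in full were the 8 tallest sites of each library, called sites and sites within 2 kb of a start. Members and tests were chosen with earlier results of these data known; other genes of the pathway were not placed, as no mm9 annotation was used here.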

Additional observations from a re-analysis of the deposited data

How the results depend on the processing

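Region numbers follow the rule used: 16 STAT5 and 10 STAT3 regions were at least 8-fold, and 127 and 116 were found against only the genome-wide mean. An adjusted p of 1e-10, a shift of 75 bp, no strand filter and STAT3 thinned to the STAT5 depth gave 51 to 54 STAT5 and 47 to 49 STAT3 regions. STAT5-higher sites numbered 17 to 26 under all alternatives run, and 17 of the 20 were called under all 4 ways of recounting (scaling by bins without a region, 400 bp, positions taken, own windows). STAT3-higher sites numbered 1 with scaling by bins without a region, 7 with an interval beyond 1.5-fold and 5 when counts were corrected for positions already taken. The density ratio of STAT5 over STAT3 in the locus was 1.47 with all reads and 1.31 outside regions. With spans widened by 5 kb, 11 sites fell to Cd28, 5 to the supplied Ctla4 span and 5 to Icos, against 9, 2 and 3. Ctla4 held 2 sites at either place. The RefSeq distance, the own windows and the correction's use for the numbers of called sites were chosen after the data were seen. No ratio of a called site changed direction. Where no rule fixes it, the cause was not tested. No paired analysis was possible because each group has 1 library.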
